A study of Mus musculus with 5 samples.

Results

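The genes described here encode 10 proteins by which the liver turns surplus carbohydrate into fatty acids and stores these as triglyceride. They are Acly, Acaca, Acacb, Fasn, Mlxipl, Thrsp, Gpam, Lpin1, Dgat1 and Dgat2. They were chosen by gene symbol, and all 10 were found among the 19938 genes that had a probe set with exactly 1 symbol on the array. Of the 10, Acaca had more than 1 probe set, and the brightest by its mean over the 5 arrays was taken. Transcript levels in whole tissue of male mice aged about 10 months and kept on regular food were measured on Affymetrix gene arrays. The 3 tumour samples came from Hdac3-null livers (Hdac3FL/-AlbCre+), in which a floxed allele of the histone deacetylase gene Hdac3 was paired with a null allele. The 2 control samples were normal livers of Hdac3FL/+AlbCre+ mice, which carry a floxed and a wild-type allele. Mice of both genotypes carried AlbCre, a Cre recombinase driven by the albumin promoter, which acts in hepatocytes, so control hepatocytes also lose their floxed allele and keep the wild-type allele. Replicates are described as biological in the labels, which give no litter, batch or time of collection. Every null sample was tumour and every control was normal tissue, so genotype and tumour cannot be told apart.

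In fatty acid synthesis, citrate that leaves mitochondria is split by ATP citrate lyase (Acly) into cytosolic acetyl-CoA, which acetyl-CoA carboxylases (Acaca, Acacb) turn into malonyl-CoA and fatty acid synthase (Fasn) assembles into palmitate. Mlxipl encodes the carbohydrate-responsive transcription factor ChREBP, and Thrsp (Spot 14) a small thyroid hormone-responsive protein that promotes lipogenesis. Triglyceride is then built from glycerol phosphate and acyl-CoA by the mitochondrial glycerol phosphate acyltransferase Gpam, the phosphatidate phosphatase Lpin1, which also acts as a transcriptional coactivator, and the diacylglycerol acyltransferases Dgat1 and Dgat2. Loss of Hdac3 from mouse liver is known for the accumulation of lipid in hepatocytes.

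The promoters of these genes are known for binding sites of sterol regulatory element-binding proteins, of E-box proteins such as ChREBP and the USF factors, and of the CCAAT-box factor NF-Y and the GC-box factor Sp1. RefSeq windows on GRCm38.p6, from 250 bases before to 50 bases after a transcript's start, were matched for 8 of the 10 genes, 10 windows in all, with a pair each for Mlxipl and Gpam. Dgat1 and Dgat2 are named only. The upstream window of Gpam is shown because its transcript passed the test, and those of Fasn and Thrsp because their tumours lay far apart. The upstream window of Mlxipl is shown because it held a match to each of 3 of the 4 motifs. All windows shown are printed 5′ to 3′ on the strand of the gene, with matches to any of the 4 motifs in capitals.
Gpam, chr19:55127189-55127488, minus strand: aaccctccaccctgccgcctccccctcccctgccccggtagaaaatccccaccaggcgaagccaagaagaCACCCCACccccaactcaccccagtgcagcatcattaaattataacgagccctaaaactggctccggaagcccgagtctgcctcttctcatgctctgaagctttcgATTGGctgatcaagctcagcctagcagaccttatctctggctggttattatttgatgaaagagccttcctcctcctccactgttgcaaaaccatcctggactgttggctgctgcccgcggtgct
Fasn, chr11:120824498-120824797, minus strand: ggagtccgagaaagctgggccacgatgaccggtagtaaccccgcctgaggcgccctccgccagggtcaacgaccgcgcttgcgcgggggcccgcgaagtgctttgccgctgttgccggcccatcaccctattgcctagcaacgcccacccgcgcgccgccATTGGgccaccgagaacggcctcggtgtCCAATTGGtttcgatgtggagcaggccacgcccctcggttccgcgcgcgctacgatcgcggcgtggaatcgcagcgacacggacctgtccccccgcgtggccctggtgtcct
Thrsp, chr7:97417501-97417800, minus strand: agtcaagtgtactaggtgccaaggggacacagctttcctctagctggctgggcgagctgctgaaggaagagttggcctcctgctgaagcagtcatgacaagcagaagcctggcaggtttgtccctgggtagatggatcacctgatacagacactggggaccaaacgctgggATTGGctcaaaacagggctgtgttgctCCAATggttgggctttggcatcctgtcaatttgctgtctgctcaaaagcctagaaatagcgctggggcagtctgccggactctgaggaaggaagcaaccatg
Mlxipl, chr5:135089640-135089939, plus strand: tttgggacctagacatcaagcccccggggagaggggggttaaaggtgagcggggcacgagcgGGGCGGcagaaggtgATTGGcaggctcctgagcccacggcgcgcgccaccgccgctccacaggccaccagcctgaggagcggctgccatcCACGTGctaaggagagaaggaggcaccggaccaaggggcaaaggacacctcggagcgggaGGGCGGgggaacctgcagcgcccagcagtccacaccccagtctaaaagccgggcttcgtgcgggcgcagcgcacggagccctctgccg
The motifs were searched on both strands in all 32851 RefSeq windows. CCAAT was found in 6 of the 10 windows, those of Acly, Acacb, Fasn and Thrsp and the upstream windows of Gpam and Mlxipl, against 37.4% of all windows. Fasn held 3 matches, at 90, 62 and 59 bases before the start, of which the last pair overlap, and Thrsp held 2, at 79 and 52 bases before it. The match of Acly lay 37 bases after the start. The E-box CACGTG was found in 1 window, upstream of Mlxipl, against 7.2% of all windows. The GC box GGGCGG was found in 3 windows, against 35.7% of all windows. These were that of Acly, with 4 matches, the upstream one of Mlxipl and the downstream one of Gpam, which is not shown. CACNCCAC, the core of a sterol regulatory element, was found in 2 windows, against 6.2% of all windows. These were the upstream one of Gpam, at 180 bases before the start, and the downstream one of Mlxipl. The windows of Acaca and Lpin1 held none of these letters. For Acaca, Acacb, Fasn and Lpin1 the only window lay wholly inside the gene. That of Acaca was at chr11:84195188-84195487, in a gene at chr11:84129635-84401651. That of Lpin1 was at chr12:16610917-16611216, in a gene at chr12:16535669-16653903. The outer ends of these genes were not searched, so a missing match here does not describe a promoter there. A match here is a description of the sequence and not a measured site.

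Array medians ran from 5.66 to 5.77 in log2 units. Hdac3 read 6.78, 6.57 and 6.65 in tumours 1, 2 and 3, against 8.21 and 8.37 in the control livers, so all tumours lay below both controls (log2 change -1.62, limma adjusted p = 0.00298). That call was lost without control 1 or control 2 (adjusted p = 0.0505 and 0.0663). The hepatocyte marker Alb was near the top of the scale in every array, between 12.36 and 12.77 in tumours and between 12.65 and 12.85 in controls, so the tissue carried the marker that its label implies. Of 11 hepatocyte markers, Asgr1 fell by 1.22 and Ttr by 0.71, and the others did not pass; both calls were also lost without tumour 2 (adjusted p = 0.0636 and 0.0818), and that of Ttr without tumour 1 (0.0597). In whole tissue, fewer cells of a type and less RNA per cell cannot be told apart. All values of the 10 genes stood at 7.23 or higher, above the lower quartile of the arrays (4.29 to 4.35), which is used here as a mark of dim signal because the deposited table holds no detection call.

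Among the 10 genes, Gpam rose, Dgat1 fell and the other 8 did not pass the test. Fitted changes were positive for 5 genes (Acly, Acaca, Fasn, Gpam, Dgat2) and negative for 5, and their median was -0.08, against -0.02 over all genes. A gene was called at a limma adjusted p under 0.05 over all 19938 genes, and 10.6% of all genes were called, 5.6% up and 4.96% down. Of all calls 53.0% were up, or 42.7% once every array was moved to the same median. The 2 called of 10 stood near that background. The median changed sign with the arrays used, from -0.29 without tumour 2 to 0.30 without tumour 3, and was 0.06 without control 1. The groups were fully apart for 6 genes, 3 with all tumours above (Acly, Acaca, Gpam) and 3 with all tumours below (Mlxipl, Lpin1, Dgat1). Over all genes the groups were apart for 44.2%, with all tumours above for 21.1% and below for 23.1%.

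**Figure D1:**
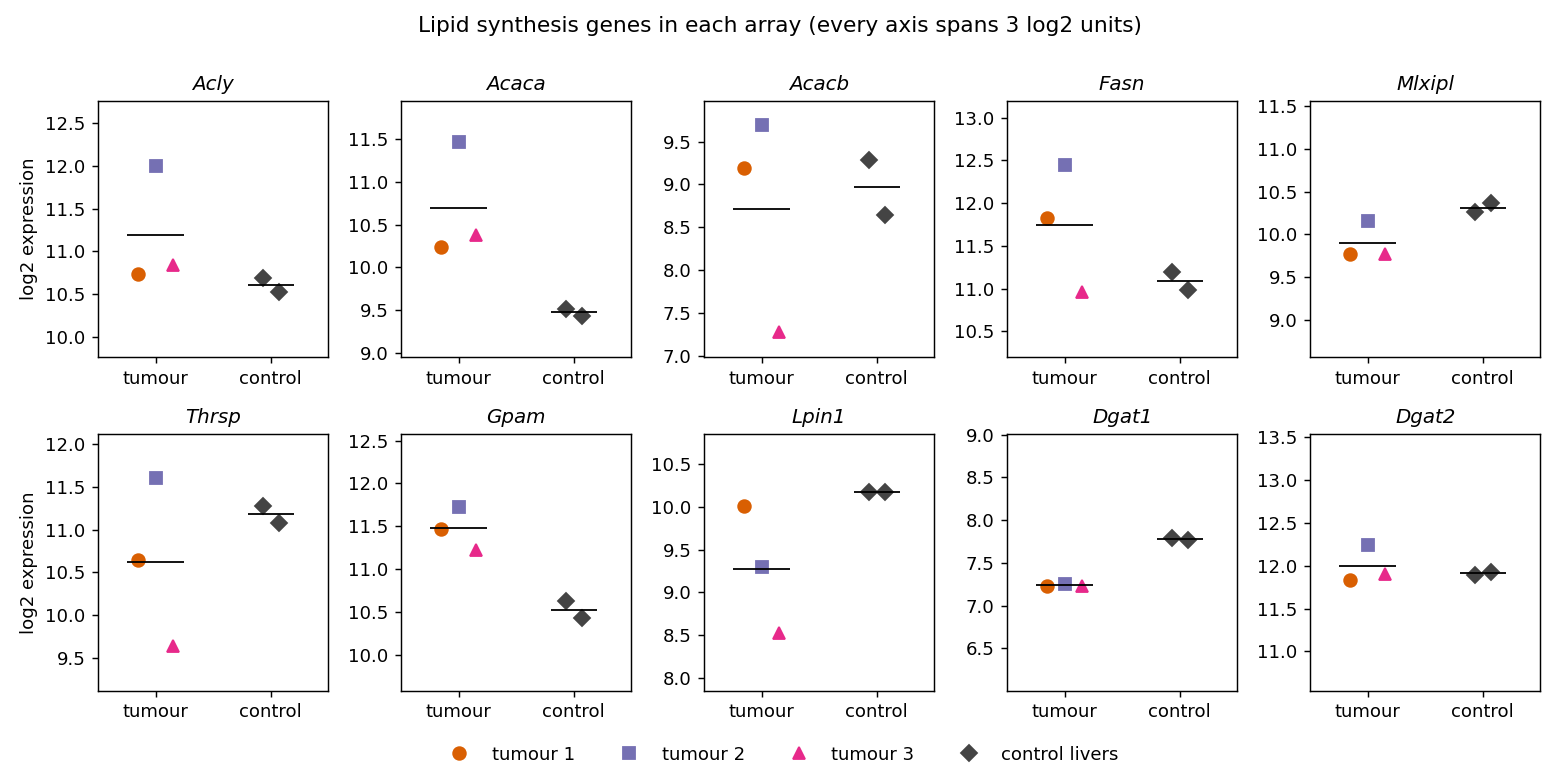
Log2 expression of the 10 genes in each array, with the 3 Hdac3-null tumours at the left of each panel, the 2 control livers at the right and horizontal lines at the group means. Every vertical axis spans 3 log2 units, so distances can be compared between panels; tumour 2 (squares) is the highest tumour in 9 of the 10 panels.

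Of the enzymes that make fatty acids, Acly read 10.73, 11.99 and 10.84 in tumours 1, 2 and 3, against 10.69 and 10.53 in controls. Tumour 2 stood 1.39 above the control mean, while tumours 1 and 3 stood 0.12 and 0.24 above it. The fitted log2 change was 0.58 (95% confidence interval -0.37 to 1.53, limma adjusted p = 0.431). Acaca, the cytosolic carboxylase that supplies malonyl-CoA for synthesis, read 10.24, 11.46 and 10.38 in the tumours and 9.52 and 9.43 in the controls. Every tumour lay above both controls, by 0.76 to 1.99 over their mean. The change was 1.22 (0.30 to 2.13), the largest of the 10 in size, but the spread among tumours kept it from passing (adjusted p = 0.103). It passed without tumour 2 (adjusted p = 0.0429, change 0.83), where the remaining tumours lay close together. A second Acaca probe set, not used above, read 9.06, 10.69 and 9.12 in the tumours, against 8.47 and 8.31 in controls, a difference of 1.23 with the same order of tumours.

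Acacb encodes the carboxylase at the outer mitochondrial membrane, whose malonyl-CoA restrains the entry of fatty acids into mitochondria. It read 9.19, 9.69 and 7.27 in tumours 1, 2 and 3, against 9.29 and 8.65 in controls. The groups overlapped, with tumour 2 above both controls and tumour 3 1.70 below their mean, and the change of -0.25 had an interval of -1.98 to 1.47 (adjusted p = 0.882). The sign of that change was positive without tumour 3 (0.47) and without control 1 (0.07). Relative to the control mean, the log2 ratio of Acacb to Acaca stood at -0.54, -1.27 and -2.60 in tumours 1, 2 and 3 and at 0.28 and -0.28 in the controls, so that all tumours lay below both controls. The change of Acacb minus that of Acaca was -1.47, with an exact two-sided permutation p of 0.2. With 3 arrays against 2, this test cannot go below 0.1. Adjusted over this ratio and that of the acyltransferases, p was also 0.2.

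Fasn read 11.82, 12.44 and 10.96 in tumours 1, 2 and 3, against 11.20 and 10.98 in controls. Tumours 1 and 2 lay above both controls and tumour 3 just below them. The change was 0.65 (-0.36 to 1.66, adjusted p = 0.407), and without tumour 3 it was 1.04 and passed (adjusted p = 0.0379). The call thus depended on whether tumour 3 was included.

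The regulators Mlxipl and Thrsp had negative fitted changes. Mlxipl read 9.77, 10.15 and 9.77 in the tumours, against 10.26 and 10.36 in controls. All tumours lay below both controls, by a fitted 0.42 (interval -0.82 to -0.01), which did not pass over all genes (adjusted p = 0.185). Thrsp read 10.64, 11.60 and 9.64 in tumours 1, 2 and 3, against 11.28 and 11.08 in controls. Tumour 2 was above both controls and the other tumours were below them, and the change was -0.56 (-1.86 to 0.75, adjusted p = 0.600). Its value without tumour 2 was -1.04, and without tumour 3 it was -0.06.

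Of the enzymes of triglyceride assembly, Gpam, which attaches the first acyl chain to glycerol phosphate and lies on chromosome 19 (chr19:55067635-55127319, GRCm38.p6), was the gene that rose. It read 11.46, 11.73 and 11.23 in the tumours and 10.62 and 10.43 in the controls. All tumours lay above both controls, and the lowest tumour stood 0.70 above their mean. The log2 change was 0.95 (0.50 to 1.39), a 1.93-fold rise (limma adjusted p = 0.0291). The call was lost without control 1 (adjusted p = 0.167), control 2 (0.235), tumour 1 (0.0569) or tumour 2 (0.0600), while the change kept to between 0.82 and 1.07.

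Lpin1, which makes diacylglycerol from phosphatidate, read 10.02, 9.29 and 8.53 in tumours 1, 2 and 3, against 10.18 in each control. All tumours lay below the controls, by 0.16, 0.88 and 1.65, so the tumours were spread far more widely than the controls. The change was -0.90 (-1.90 to 0.10, adjusted p = 0.246). Its value without tumour 1 was -1.26 (adjusted p = 0.0512) and without tumour 3 it was -0.52.

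Dgat1 and Dgat2 encode unrelated enzymes that both add the last acyl chain to diacylglycerol. Dgat1 (chr15:76502012-76512021) read 7.23, 7.26 and 7.24 in the tumours, against 7.79 and 7.77 in controls. The tumours were nearly alike and all lay below both controls. Dgat1 fell by 0.54 on the log2 scale (interval -0.82 to -0.26, limma adjusted p = 0.0374), or 1.45-fold. This call was lost without control 1 or control 2 (adjusted p = 0.232 and 0.231), without tumour 1 or tumour 2 (0.0741 and 0.0901) and with a variance trend and robust settings (0.0586), though the change stayed between -0.55 and -0.53 with any array left out. Dgat2 read 11.83, 12.25 and 11.90 in tumours 1, 2 and 3, against 11.89 and 11.93 in controls. The groups overlapped, and the change of 0.08 had an interval of -0.31 to 0.48 (adjusted p = 0.819). The ratio of Dgat2 to Dgat1 was higher in all tumours than in both controls, by 0.48, 0.86 and 0.53 over the control mean. The change of Dgat2 minus that of Dgat1 was 0.62 (exact two-sided permutation p = 0.1, the smallest this design allows, and 0.2 adjusted over both ratios).

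**Figure D2:**
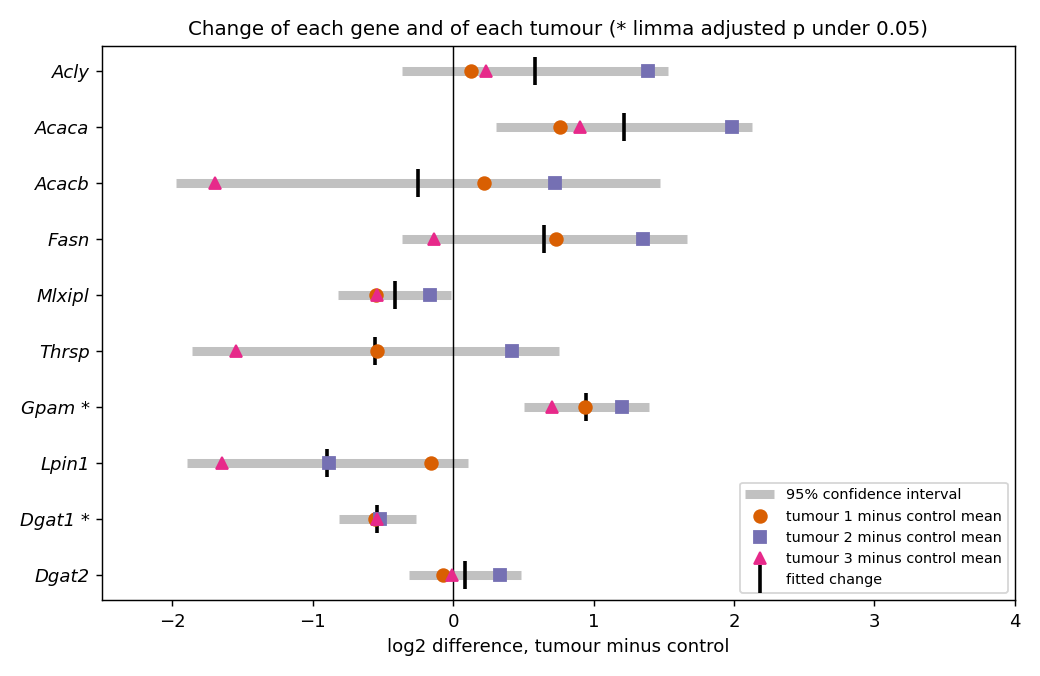
Log2 difference between tumour and control for the 10 genes in the order of the pathway. Grey bars are 95% confidence intervals of the limma fit, vertical ticks the fitted changes and coloured symbols each tumour minus the control mean; asterisks mark Gpam and Dgat1. Tumour 2 is furthest to the right for 9 genes, and for Acacb, Thrsp and Lpin1 tumour 3 is furthest to the left, at -1.70, -1.54 and -1.65.

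Most of the 10 genes had their highest tumour value in the same tumour, a pattern that was noticed in these values and is given as a description. The highest tumour value was in tumour 2 for 9 of them, all but Lpin1. Over all genes, tumour 2 was highest for 26.1%, and for 37.9% of the 4421 genes that were at least as bright in controls as Dgat1, the dimmest of the 10. Tumour 2 exceeded the mean of tumours 1 and 3 by 1.21 for Acly, 1.16 for Acaca, 1.46 for Acacb, 1.05 for Fasn and 1.46 for Thrsp. It did so by 0.38 for each of Mlxipl, Gpam and Dgat2 and by 0.03 for Dgat1. The lowest value was in tumour 3 for 5 genes (Acacb, Fasn, Thrsp, Gpam, Lpin1) and in tumour 1 for the other 5. Over all genes, tumour 3 was lowest for 28.4% and tumour 1 for 37.5%. Tumour 3 was also the highest tumour for 46.6% of all genes, and tumour 1 for 27.4%.

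The range over the 3 tumours differed as widely among the 10 genes. It was 2.42 log2 units for Acacb, 1.96 for Thrsp, 1.49 for Fasn and for Lpin1, 1.26 for Acly and 1.23 for Acaca. These 6 stood between the 94.9th and 99.0th percentile of all genes. At the other end, Dgat1 spanned 0.03, at percentile 0.92. The median of the 10 was 1.25, against 0.33 over all genes and 0.42 over those at least as bright as Dgat1. No array was repeated, so differences between single tumours have no error of their own.

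Genes that feed or control the pathway were examined in 5 lists, and their calls come from the same fit. These lists and the cell marker lists below were written with earlier results of these data known, so their counts are descriptions. In the list of regulators, 6 of 21 measured genes fell and none rose at a limma adjusted p under 0.05, against 4.96% of all genes fallen at that threshold. At an unadjusted limma p under 0.05, 11 fell and 1 rose. The share of all genes at that p was not counted, so these counts have no background to be read against. The list's median change was -0.47. Srebf1, which encodes the sterol regulatory element-binding protein that drives fatty acid synthesis genes, read 8.97, 9.55 and 9.40 in tumours 1, 2 and 3, against 10.34 and 10.37 in controls. All tumours lay below both controls, and the change was -1.05 (-1.53 to -0.56, adjusted p = 0.0275). Scap, the escort that carries this factor's precursor to the Golgi, fell by 1.08 and Insig1, which holds Scap in the endoplasmic reticulum, by 1.12. Nr1h3, the liver X receptor that activates Srebf1, fell by 0.93. Pparg (-0.81) and Irs1 (-0.56) were the other called genes, named after their values were seen. Without control 1 or control 2, the first 4 of these calls were lost (adjusted p between 0.0844 and 0.213), and that of Nr1h3 also without tumour 2 (0.0531). Pparg and Irs1 lost theirs as well without either control or without tumour 1, and Irs1 without tumour 2. Tumour 2 was highest for 5 of the 21 regulators, and Srebf1 was among these 5.

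Of 15 genes that supply acetyl-CoA and NADPH, 1 rose and 1 fell. Pklr, the liver pyruvate kinase and a ChREBP target, read 11.83, 12.19 and 11.93 in tumours, against 11.03 and 10.49 in controls, a change of 1.23 (limma adjusted p = 0.0202). Gckr, the regulatory protein of glucokinase, fell by 1.47, with every tumour at 9.40 or lower and both controls above 10.5. The Pklr call was lost without control 1, control 2 or tumour 2 (adjusted p = 0.0733, 0.158 and 0.0561), and the Gckr call without control 1 or control 2 (0.123 and 0.0913). In this list tumour 2 was highest for 13 of the 15 genes.

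Among 16 genes of malonyl-CoA control and mitochondrial fatty acid synthesis, Prkab1, a regulatory subunit of the AMP-activated kinase that phosphorylates acetyl-CoA carboxylases, rose by 1.42, and Cbr4, a reductase of mitochondrial fatty acid synthesis, fell by 0.66. Both calls were lost without either control or without tumour 1 or tumour 2 (adjusted p between 0.0636 and 0.266), and that of Prkab1 also with arrays shifted to a common median (0.0608). Tumour 2 was highest for 12 of the 16.

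In the list of acyl-CoA ligases and glycerolipid assembly, 4 of 25 genes rose and 3 fell. Mogat2, a monoacylglycerol acyltransferase best known from the intestine, read 7.50, 8.60 and 7.81 in tumours, against 5.00 and 5.15 in controls, a change of 2.89 (2.10 to 3.68, limma adjusted p = 0.00622). Plpp2, a lipid phosphate phosphatase, rose by 2.02, Acsl4, a ligase with a preference for arachidonate, by 1.80, and Lpin3, a relative of Lpin1, by 1.46. All tumours lay above both controls for these 4 genes. Plpp2 kept its call with any array left out, and the other 3 lost theirs without control 1 or control 2 (adjusted p between 0.0628 and 0.171). The genes that fell were Gpat4, an acyltransferase of the endoplasmic reticulum that catalyses the same step as Gpam (-0.92), the lipid droplet gene Bscl2, which encodes seipin (-0.95), and Mogat1 (-1.20). These 3 were named after their values were seen, and each lost its call without control 1, control 2 or tumour 2. Bscl2 and Mogat1 also lost theirs without tumour 1 (limma adjusted p = 0.0669 and 0.0672). The tumour values of Mogat1 were below the arrays' lower quartile, so the size of its fall is uncertain. Tumour 2 was highest for 14 of the 25.

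Of 10 elongases and desaturases, which act on the palmitate that Fasn makes, Elovl7 and Scd2 rose by 5.96 and 4.88 and Elovl3 fell by 5.56, with calls that held with any array left out. Elovl3 read 3.66 to 4.02 in tumours, below the arrays' lower quartile, against 9.86 and 9.06 in controls, so the size of its fall is uncertain. The other 7 did not pass. Tumour 2 was highest for 5 of the 10.

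**Figure D3:**
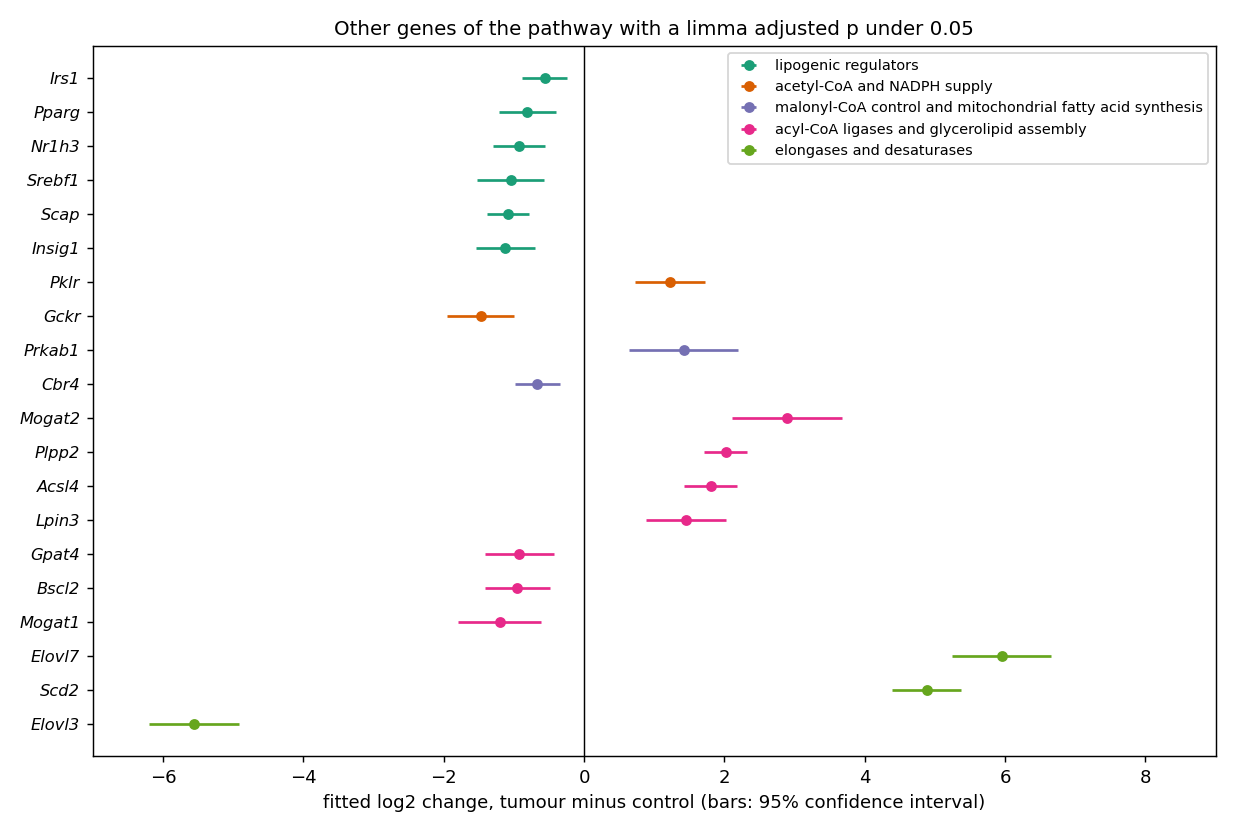
Fitted log2 change, tumour minus control, of the 20 genes called in the 5 lists of the pathway; bars are 95% confidence intervals and colours mark the lists. All 6 called regulators lie between -1.12 and -0.56, while Mogat2, Plpp2, Acsl4 and Lpin3 lie between 1.46 and 2.89.

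Markers of other cell types moved in the same tumours, and their part in the values above was not tested. Of 14 macrophage markers, 7 rose and 1 fell, among them Mpeg1 (2.47), Cd68 (3.02) and Lyz2 (2.26), which rose, and Cd163 (-2.20), which fell. The other 6, named with their values known, were not called. They were Itgam (1.63), Trem2 (0.44), Timd4 (0.36), Marco (0.23), Vsig4 (-0.20) and Clec4f (-0.80). Vsig4 read 9.84, 7.34 and 4.55 in tumours 1, 2 and 3, against 7.07 and 7.83 in controls. Clec4f read 9.28, 6.37 and 5.03 in these tumours, against 7.51 and 7.87 in controls. The signal of all 14 markers, taken out of the log2 scale and summed, was 4388 to 7519 in tumours and 1406 to 1807 in controls. Adgre1 rose by 2.27. Tumour 2, in which most of the lipid synthesis genes were highest, had the lowest macrophage sum of the tumours, and none of the 14 markers had its highest tumour value there. The median macrophage marker stood 2.28, 1.14 and 2.38 above the control mean in tumours 1, 2 and 3. The hepatocyte marker sum was 56729, 51813 and 49262 in tumours 1, 2 and 3 and 59603 to 62131 in controls, and tumour 2 was highest for 2 of the 11 markers.

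Adipocytes also express most of the 10 genes. Of 7 measured adipocyte markers, 3 rose: Fabp4 by 4.55, Cidec by 3.07 and Lpl by 2.59, which macrophages or fat-laden hepatocytes can express too. Their summed signal was 1903 to 3314 in tumours and 250 to 372 in controls. The defining marker Adipoq (3.39 to 3.73 in tumours and 3.55 to 3.60 in controls) and a second adipocyte hormone gene chosen after its values were seen, Lep (3.75 to 3.90 in tumours and 3.47 to 3.94 in controls), were below the arrays' lower quartile in every sample, so adipocyte RNA was not detectable from them. Retn and Plin1, also chosen after their values were seen, stood above that quartile in every array, and neither was called. Retn read 4.71 to 5.03 in tumours and 4.83 to 5.17 in controls, and Plin1 5.61 to 5.68 and 5.35 to 5.79. Whether adipocytes were present was not tested. In tumour 2, Fabp4 and Cidec were the highest of the tumours, at 10.75 and 10.15. Ptprc, the leukocyte common antigen, rose by 2.52 and was the 1 gene called of 6 lymphocyte markers, and Acta2 rose by 2.44 as the 1 gene called of 8 stellate cell and fibroblast markers, where Des read 5.11 to 5.56 in tumours and 4.90 to 5.25 in controls. In the lists of 7 cholangiocyte and 7 endothelial markers limma called none, with Krt19 at 1.69 and Pecam1 at 1.27. At an unadjusted limma p under 0.05, 4 and 1 of them rose. The share of all genes at that p was not counted, so these counts too have no background. The summed signal of endothelial markers was 3105, 1515 and 681 in tumours 1, 2 and 3 and 1819 to 2080 in controls. Stellate cell and fibroblast markers summed to 2314, 1269 and 764 in these tumours and 914 to 923 in controls. Cholangiocyte markers summed to 366, 355 and 661 in these tumours and 223 to 226 in controls, and lymphocyte markers to 614, 607 and 1612 and 235 to 245. Tumour 3 was lowest for 7 of 7 endothelial and 7 of 8 stellate cell and fibroblast markers. It was lowest for 4 of 7 cholangiocyte and 1 of 6 lymphocyte markers. The named marker calls other than Fabp4 were lost without control 1 or control 2 (adjusted p between 0.0576 and 0.271).

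**Figure D4:**
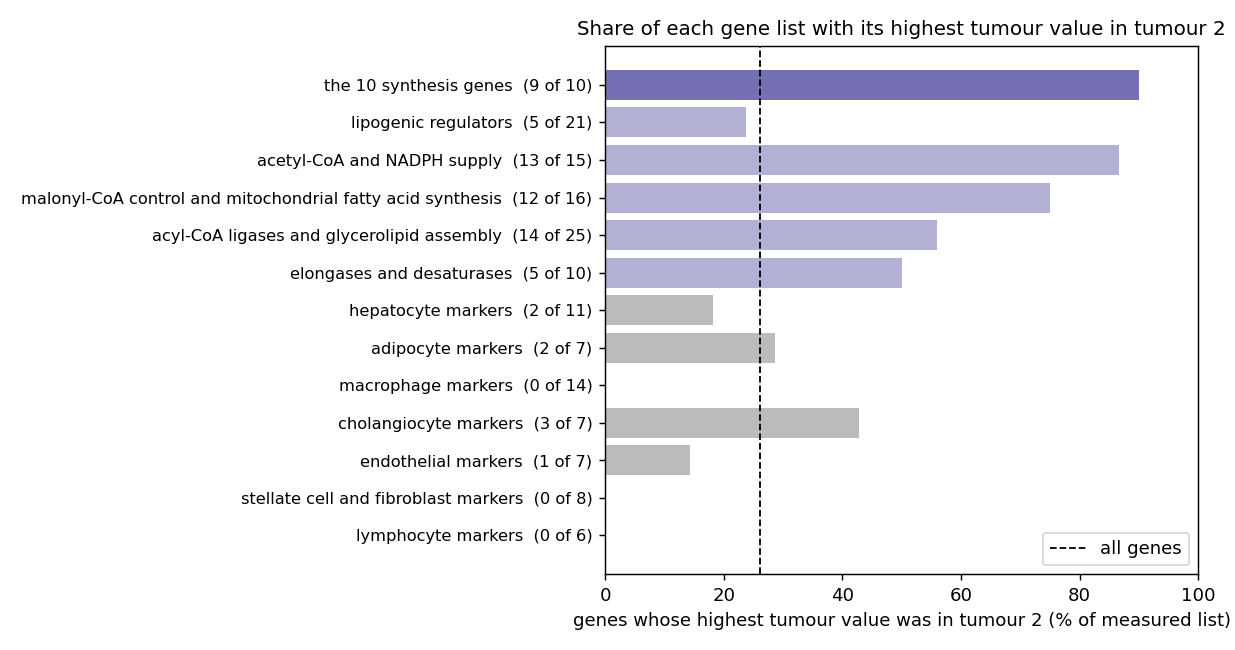
Share of each measured gene list whose highest tumour value was in tumour 2, in percent, with the counts beside the list names; the dashed line is the share of all genes, 26.1%. The 10 synthesis genes stand at 90.0%, the supply list at 86.7%, and the macrophage, stellate cell and lymphocyte lists at 0. For genes at least as bright in controls as Dgat1 the share, not drawn, was 37.9%.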

How the data were processed

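The authors deposited 1 table of log2 expression values of probe sets. Per the submitters' processing notes, GCOS and RMA were used, at steps and versions not stated; no genome build is given. RMA corrects background, normalises by quantiles and compresses low and large differences. Of 28853 probe sets, 21789 had 1 symbol in the platform table, 1621 several and 5443 none. The first kind gave 19938 genes, and 999 of them had several probe sets. Arrays were grouped by title, and 0 columns of other samples were present. limma 3.58.1 in R 4.3.3 (lmFit, eBayes) fitted tumour minus control over all genes with no covariate (3 residual and 2.98 prior degrees of freedom), with Benjamini-Hochberg adjustment, and was tested on simulated data. The number of arrays limits the precision. The alternatives were 2 scalings, a filter on dim genes, probe set means, variance settings, array weights, a replicate block, a looser threshold and each array left out. Named were the 10 genes, Hdac3, up to 4 called genes per list (smallest p first) and 7 defining markers; others are marked as chosen after their values were seen. The members and lists were chosen with earlier results of these data known. Python 3.11.15, pandas 2.3.3 and matplotlib 3.10.9 joined tables and drew figures.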

Additional observations from a re-analysis of the deposited data

How the results depend on the processing

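With 2 controls, single calls depended on each array; where a control was left out, the other was assumed to vary like the tumours. With an array left out, the 10 genes had 0 to 2 calls up and 0 to 1 down, their median change ran from -0.29 to 0.30, and counts over all genes ran from 62 to 1465 up and from 46 to 1254 down. The 87 pathway genes then had 3 to 10 calls up and 1 to 17 down, and the cell markers 1 to 22 up and 0 to 3 down. Hdac3 ran from -1.71 to -1.54, Acacb from -0.74 to 0.47, Dgat2 from -0.043 to 0.16, Alb from -0.22 to 0.014 and Adipoq from -0.16 to 0.0065. With array weights, all genes gave 1727 calls up and 1525 down against 1117 and 989, the 10 genes gave 2 up (Acaca joined, adjusted p = 0.0369), their median was 0.16 and Acacb stood at 0.17. At a threshold of 0.1, all genes gave 1743 up and 1583 down. With a variance trend and robust settings 0 of the 10 fell by limma (1 at an unadjusted p under 0.05). The share of all genes at that unadjusted p was not counted, here or with the replicate block below. With a common median Dgat2 stood at -0.014. Deviations of same-numbered arrays from their group means correlated at 0.004 and -0.013. With 2 controls, their deviations mirror each other, so this cannot settle whether the labels' replicate numbers pair the arrays. With the replicate block, in which tumour 3 has no partner and drops out of the contrast, 1 of the 10 rose and 0 fell by limma (1 at an unadjusted p under 0.05, with Dgat1 at adjusted p = 0.0783), their median was 0.30, Acacb stood at 0.47 and Alb at 0.014, and 23 markers were called up against 12. Ttr and Gpat4 lost their calls with repeated quantile normalisation (adjusted p = 0.0581 and 0.0592), Irs1 with the variance trend (0.0685), and Ttr, Pparg and Irs1 with the block (0.0622, 0.0602 and 0.0511). The cause of these changes was not tested. Over all settings, including those above, named genes other than Hdac3 and counts of single pathway lists kept direction and call in 598 cases, lost a call in 88, gained one in 11, changed sign in 9 and, for counts, moved by over 1.5 times in 31. Hdac3, both isozyme differences, the median of the 10 genes and the counts over the 10, all, pathway and marker genes kept theirs in 105 cases, while counts moved by over 1.5 times in 34, the median changed sign in 4 and Hdac3 lost its call in 2. Not run were detection filters on the probe level, since the table holds no detection calls. The differences of change between Acacb and Acaca and between Dgat2 and Dgat1 kept their signs with repeated quantile normalisation and with each array left out. A common median moves both genes of an array alike, so it could not alter either difference. Probe set means could alter only that of Acacb and Acaca, which kept its sign. Such fixed outcomes are among the 105 cases above.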

Other observations

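Acss2, which makes acetyl-CoA from acetate and so offers an entry to the pathway beside Acly, was chosen after its values were seen. It read 9.05, 9.47 and 6.82 in tumours 1, 2 and 3, against 11.11 and 10.68 in control livers. All tumours lay below both controls, but the spread among tumours, at the 99.3rd percentile of all genes, kept the change of -2.45 from passing (95% confidence interval -4.33 to -0.56, limma adjusted p = 0.109). Mid1ip1, which encodes the partner and relative of the Thrsp protein and was chosen in the same way, read 8.56, 9.11 and 9.08 in the tumours and 9.36 and 9.95 in the controls, so that all tumours were lower (change -0.74, adjusted p = 0.134).

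Elovl6, the elongase that extends palmitate, was also picked after its values were seen, as were Agpat2 and Scd1. It read 10.77, 11.89 and 10.80 in tumours 1, 2 and 3, against 10.53 and 10.38 in controls (change 0.70, limma adjusted p = 0.300). Tumour 2 stood apart from the others there, as it did for Acly and Acaca, and Agpat2, which adds the second acyl chain of glycerolipids, read 10.59, 11.45 and 10.23 in the tumours and 10.81 and 10.73 in the controls (change -0.015, adjusted p = 0.987). Scd1, the main desaturase of liver, read 12.72, 12.42 and 12.22 in tumours 1, 2 and 3, against 12.60 and 12.16 in controls, with its highest tumour value in tumour 1. These values come from single arrays and carry no test of the differences between tumours.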
